A study of Mus musculus with 40 samples.

Results

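The 10 genes described here encode chemokines that myeloid and stromal cells make: Ccl2, Ccl7, Ccl12, Ccl8, Ccl6, Ccl9, Cxcl1, Cxcl2, Cxcl5 and Cxcl12. They were picked by symbol from the 39012 mouse genes of the deposited tables, and all 10 passed the filter on low counts in every comparison.

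The study sequenced RNA from 40 tumors grown from EMT-6, a mouse mammary carcinoma line, in the mammary pad of female Balb/C mice aged 8 to 12 weeks. Each library came from 1 mouse, and the study used a single line in a single inbred strain. Dosing into a vein started 20 days after the cells were placed, at a mean tumor volume near 400 mm3, and was given on days 0, 1 and 2. Tumors were taken on day 6. The isotype control group received an inactive isotype of anti-PD-L1 (400 µg, 10 mice). The trap control group received a TGFβ trap joined to a mutated anti-PD-L1 antibody, known from the study as unable to bind PD-L1 (492 µg, 10 mice). The anti-PD-L1 group received the antibody (400 µg, 10 mice), and the bifunctional group received anti-PD-L1 joined to the TGFβ trap (492 µg, 10 mice), the protein called M7824 in the study's title. PD-L1 on tumor and myeloid cells dampens T cells by engaging PD-1. TGF-β dampens immunity too and makes fibroblasts lay down matrix.

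The libraries differed in ways that touch every value below. Libraries C0449 to C0464 (set 1: 10 isotype control and 6 trap control tumors) held 29.7% to 62.3% of their counts in 7SL and mitochondrial ribosomal RNA, and libraries C0465 to C0488 (set 2: 4 trap control, 10 anti-PD-L1 and 10 bifunctional tumors) held 11.7% to 18.0%. The sets were therefore fitted apart. Totals ran from 13495835 to 25108601 counts in set 1 and from 21987948 to 27658263 in set 2. Library numbers follow treatment, so anything tied to their order and the treatment cannot be told apart. Some libraries were rich in RNA of neighbouring tissue. The 7 skeletal muscle markers summed to 1632 CPM (counts scaled to a fixed library total) in C0479 and 3401 in C0484, both bifunctional, against a bifunctional median of 5.02 and an anti-PD-L1 median of 1.23, and to 5171 in C0463, a trap control tumor of set 1. C0479 also held 2154 CPM of keratinocyte markers, and C0484 held 694 CPM of adipocyte markers. Krt8, Krt18, Krt19, Epcam and Cdh1, markers of epithelial cells, had counts in all 40 libraries, but at unlike levels. In anti-PD-L1 tumors mean Krt8 was 584 CPM, against 5.92 for Epcam and 5.51 for Cdh1. All CPM values are scaled by TMM, a correction for library composition, within a set, so a CPM of set 1 and one of set 2 are not on 1 scale.

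Chemokines are small secreted proteins that bind G-protein-coupled receptors on leukocytes and direct their movement. Ccl2, Ccl7 and Ccl12 are ligands of CCR2, the receptor that brings inflammatory monocytes out of marrow and into tissue. Ccl8 is in mouse a ligand of CCR8, and Ccl6 and Ccl9 are CCR1 ligands that macrophages and other myeloid cells make. Cxcl1, Cxcl2 and Cxcl5 carry the ELR motif and draw neutrophils through CXCR2. Cxcl12 is made by fibroblasts, endothelial and other stromal cells, binds CXCR4 and the scavenging receptor ACKR3, and holds stem cells and lymphocytes in their niches. In tumors these ligands are known as recruiters of monocytes, macrophages and neutrophils. In bulk tumor RNA, fewer cells of a type and less RNA per cell cannot be told apart.

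The genes lie in a few clusters (mm10, GENCODE M21, all protein-coding). On chromosome 11, plus strand, stand Ccl2 (ENSMUSG00000035385, chr11:82035571-82037453), Ccl7 (ENSMUSG00000035373, chr11:82045712-82047525), Ccl12 (ENSMUSG00000035352, chr11:82101845-82103400) and Ccl8 (ENSMUSG00000009185, chr11:82115185-82116799). Farther along the same chromosome, on the minus strand, stand Ccl9 (ENSMUSG00000019122, chr11:83572919-83578636) and Ccl6 (ENSMUSG00000018927, chr11:83587882-83593087), 9246 bases apart. Cxcl5 (ENSMUSG00000029371, chr5:90759360-90761624), Cxcl1 (ENSMUSG00000029380, chr5:90891241-90893115) and Cxcl2 (ENSMUSG00000058427, chr5:90903871-90905938) share the plus strand of chromosome 5. Cxcl12 (ENSMUSG00000061353, chr6:117168535-117181367) stands apart from the rest on chromosome 6.

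Promoters are printed for the members that fall on different sides of the correlations given further on: Cxcl1 and Cxcl2, which varied together in set 2, then Ccl12 and Ccl9, then Cxcl12. Each sequence is the 120 bases before the RefSeq start site on the gene's own strand (GRCm38.p6), 5′ to 3′, and capitals mark a match to GGNNNTTCC or its reverse complement, letters resembling a binding site of NF-κB, the transcription factor of inflammatory signalling. RefSeq promoters were at hand for 7 of the 10 members.
Cxcl1 (chr5:90891125-90891244, plus strand): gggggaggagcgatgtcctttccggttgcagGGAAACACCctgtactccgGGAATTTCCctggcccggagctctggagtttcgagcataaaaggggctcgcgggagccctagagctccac
Cxcl2 (chr5:90903779-90903898, plus strand): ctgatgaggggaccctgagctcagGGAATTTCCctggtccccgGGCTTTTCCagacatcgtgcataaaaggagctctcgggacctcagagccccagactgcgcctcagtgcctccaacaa
Ccl12 (chr11:82101725-82101844, plus strand): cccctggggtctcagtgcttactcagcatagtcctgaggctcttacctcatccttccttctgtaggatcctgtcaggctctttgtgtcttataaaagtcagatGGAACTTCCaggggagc
Ccl9 (chr11:83578637-83578756, minus strand): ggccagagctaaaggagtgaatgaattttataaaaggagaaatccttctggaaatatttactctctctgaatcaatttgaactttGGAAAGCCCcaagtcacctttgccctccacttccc
Cxcl12 (chr6:117168415-117168534, plus strand): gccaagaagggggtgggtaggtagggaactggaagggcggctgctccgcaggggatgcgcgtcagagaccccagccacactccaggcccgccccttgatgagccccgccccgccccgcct

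In windows from 250 bases before to 50 bases after the start site, searched on both strands, the NF-κB-like letters occurred in 4 of these 7 members and in 18.5% of 32851 RefSeq promoters. Cxcl1 and Cxcl2 each held 2 matches whose first bases lay 19 bases apart, at -89 and -70 in Cxcl1 and at -96 and -77 in Cxcl2. The match of Ccl12 began at -17 and that of Ccl9 at -35. The AP-1-like letters TGANTCA occurred in Ccl9 alone of the 7 (at -53, apart from the NF-κB-like match, 7.81% of all promoters). Neither the C/EBP-like letters TTGCNNAA (10.8% of all promoters) nor the interferon-like letters TTTCNNTTT (10.6%) occurred in any of the 7. A match is a run of letters, not a measured binding site, and the printed stretch shows only the NF-κB-like letters in capitals.

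Levels can be compared between genes on the TPM scale, which divides by transcript length. In set 2 Ccl6 had the highest median, 48.2 TPM (range 17.5 to 223), followed by Ccl8 at 44.0 (10.9 to 324), Ccl12 at 23.6, Ccl9 at 22.5, Ccl2 at 22.0 and Ccl7 at 18.6. The CXC members lay lower, with medians of 3.54 TPM for Cxcl5, 2.88 for Cxcl1, 2.07 for Cxcl12 and 1.69 for Cxcl2. Ccl7 exceeded Cxcl5 in 24 of 24 libraries, the only step of that order kept in every library of set 2. Neighbours within each class were closer: Ccl6 was above Ccl8 in 14 of 24 libraries, Ccl12 above Ccl9 in 10, Ccl9 above Ccl2 in 15, and Cxcl1 above Cxcl12 in 14. In set 1 Ccl6 again had the highest median (6.38 TPM) and Cxcl12 the lowest (0.155 TPM, range 0.0200 to 2.70).

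**Figure D1:**
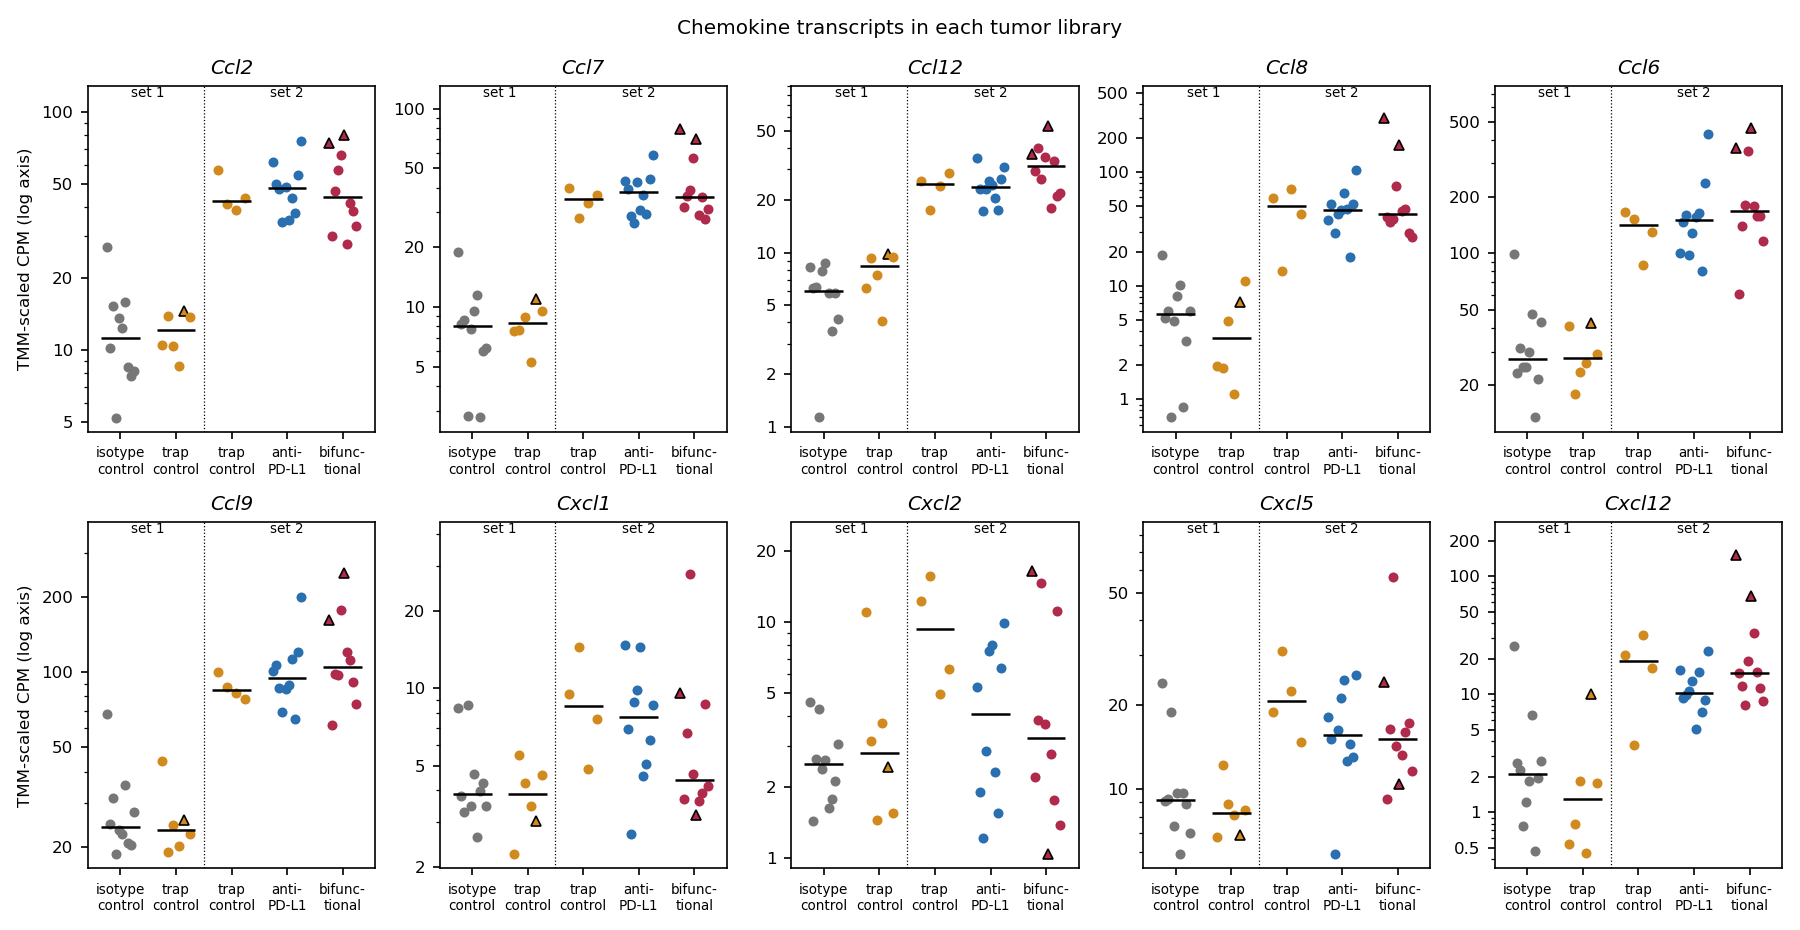
TMM-scaled CPM (log axis) of each chemokine in every tumor library, by group and set, 1 point per mouse, with bars at the group medians; triangles mark the muscle-rich libraries C0463, C0479 and C0484. The dotted line parts the sets, whose CPM are not on 1 scale; within each set the groups overlap for all 10 genes, and C0479 is the highest Cxcl12 point at 152 CPM.

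The main comparison within set 2, bifunctional against anti-PD-L1, asks what the TGFβ trap adds to the antibody. Of the 10 chemokines 1, Cxcl12, was higher and none was lower, where 25.6% of all 15704 genes tested were called (edgeR quasi-likelihood F test, Benjamini-Hochberg adjusted p under 0.05). The median log2 fold change of the 10 was 0.29 against 0.014 for all genes, and 9 of 10 were positive. The groups overlapped for all 10 genes.

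Cxcl12 ran from 8.16 to 152 CPM with a median of 15.2 in bifunctional tumors. It ran from 5.09 to 23.3 CPM with a median of 10.3 in anti-PD-L1 tumors, and in the 4 trap control tumors of set 2 it was 3.70, 16.7, 21.7 and 31.7 CPM. The highest bifunctional values, 152 CPM in C0479 and 67.9 in C0484, came from the muscle-rich tumors. The mean was 34.2 ± 45.2 CPM (SD, n = 10) against 11.9 ± 5.30 (n = 10), 8 of 10 bifunctional tumors lay above the anti-PD-L1 median, and 3 lay above its highest value. The log2 fold change was 1.53 (SE 0.50, 95% interval 0.50 to 2.56, edgeR adjusted p = 0.0301).

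The Cxcl12 call depended on the scale and on single libraries. On the TPM scales Cxcl12 was not called, at 0.85 on log2(TPM + 1) and 1.09 on log2(TPM + 0.1) (limma adjusted p = 0.0899 and 0.0864). Without C0479 the log2 fold change of Cxcl12 was 0.83 (edgeR adjusted p = 0.140), without C0484 it was 1.38 (p = 0.0637), and without C0474, an anti-PD-L1 tumor, it was 1.46 (p = 0.0524). With C0479 and C0484 both left out it was 0.39 (SE 0.33, edgeR adjusted p = 0.481). With scores of muscle, keratinocyte and adipocyte markers as covariates it was 0.12 (adjusted p = 0.8002). Over the same changes the share of all genes called fell from 25.6% to 4.91% without both libraries and was 4.86% with the covariates. The 6 endothelial markers (Pecam1, Cdh5, Kdr, Vwf, Tek, Emcn), all with counts in every library, summed to 576 CPM in C0479 and 411 in C0484, against 146 to 340 CPM in anti-PD-L1 tumors and 177 to 576 in bifunctional tumors. Of these markers 1 of 6 was higher in the bifunctional group, Vwf (log2 fold change 1.49, edgeR adjusted p = 0.0072). All 7 of 7 skeletal muscle markers were higher, and none was called without C0479 and C0484. The part of endothelial or muscle RNA in the Cxcl12 difference was not tested beyond these values.

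The CCR2 ligands differed little between these groups. Ccl2, the classical monocyte attractant, ran from 27.8 to 80.1 CPM (median 44.0) in bifunctional tumors and from 34.6 to 75.4 CPM (median 47.8) in anti-PD-L1 tumors. Its log2 fold change was 0.02 (95% interval -0.36 to 0.41, edgeR adjusted p = 0.940). Ccl7, its neighbour on chromosome 11, had medians of 36.1 CPM (27.7 to 78.7) and 38.2 CPM (26.6 to 58.6), with a log2 fold change of 0.20 (95% interval -0.19 to 0.58). For Ccl2 3 of 10 bifunctional tumors lay below the lowest anti-PD-L1 tumor and 1 above the highest, and for Ccl7 2 lay above the highest. Ccl12 stood at 31.4 CPM (18.0 to 53.2) in bifunctional and 23.9 CPM (17.3 to 34.8) in anti-PD-L1 tumors, and 4 of 10 bifunctional tumors exceeded the highest anti-PD-L1 tumor. Its log2 fold change was 0.37 (SE 0.17, edgeR adjusted p = 0.0984). Ccl12 passed the threshold when C0485 was left out (0.46, edgeR adjusted p = 0.0454) and on both TPM scales (0.59 and 0.61), where the median of all genes shifted by 0.153 and 0.272. Without C0479 and C0484 it was 0.23 (adjusted p = 0.360).

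Ccl8, the CCR8 ligand, had nearly equal medians, 42.9 CPM in bifunctional and 46.8 CPM in anti-PD-L1 tumors. Its highest values were 301 CPM in C0479 and 174 in C0484, above the anti-PD-L1 maximum of 104 CPM, and no other bifunctional tumor exceeded that maximum. The log2 fold change of 0.72 (95% interval -0.15 to 1.59, edgeR adjusted p = 0.202) became -0.20 without these libraries. The CCR1 ligands behaved alike. Ccl6 ran from 60.6 to 463.2 CPM (median 168) against 80.5 to 429 (median 151), a log2 fold change of 0.35 (95% interval -0.30 to 1.01). Ccl9 ran from 61.7 to 250 CPM (median 105) against 65.1 to 200 (median 94.9), a log2 fold change of 0.26 (95% interval -0.18 to 0.71). For both genes 7 of 10 bifunctional tumors lay above the anti-PD-L1 median and 1 above its highest value.

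The CXCR2 ligands were low and scattered. Cxcl1 had medians of 4.40 CPM (3.20 to 28.0) in bifunctional and 7.76 CPM (2.71 to 14.8) in anti-PD-L1 tumors, with a log2 fold change of -0.11 (95% interval -0.88 to 0.66). Cxcl2 had medians of 3.23 CPM (1.04 to 16.4) and 4.09 CPM (1.22 to 9.94), with a log2 fold change of 0.32 (95% interval -0.71 to 1.35). Cxcl5 had medians of 15.1 CPM (9.23 to 56.6) and 15.7 CPM (5.87 to 25.5), with a log2 fold change of 0.18 (95% interval -0.41 to 0.77). For Cxcl1 and Cxcl2 the bifunctional median was the lower one although a few bifunctional tumors were the highest of both groups: C0482 for Cxcl1, and C0479 with 2 others for Cxcl2. Cxcl2 shares 7.59% of its 31-base words with its paralog Cxcl3, so its expected counts depend in part on how reads were divided between them.

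**Figure D2:**
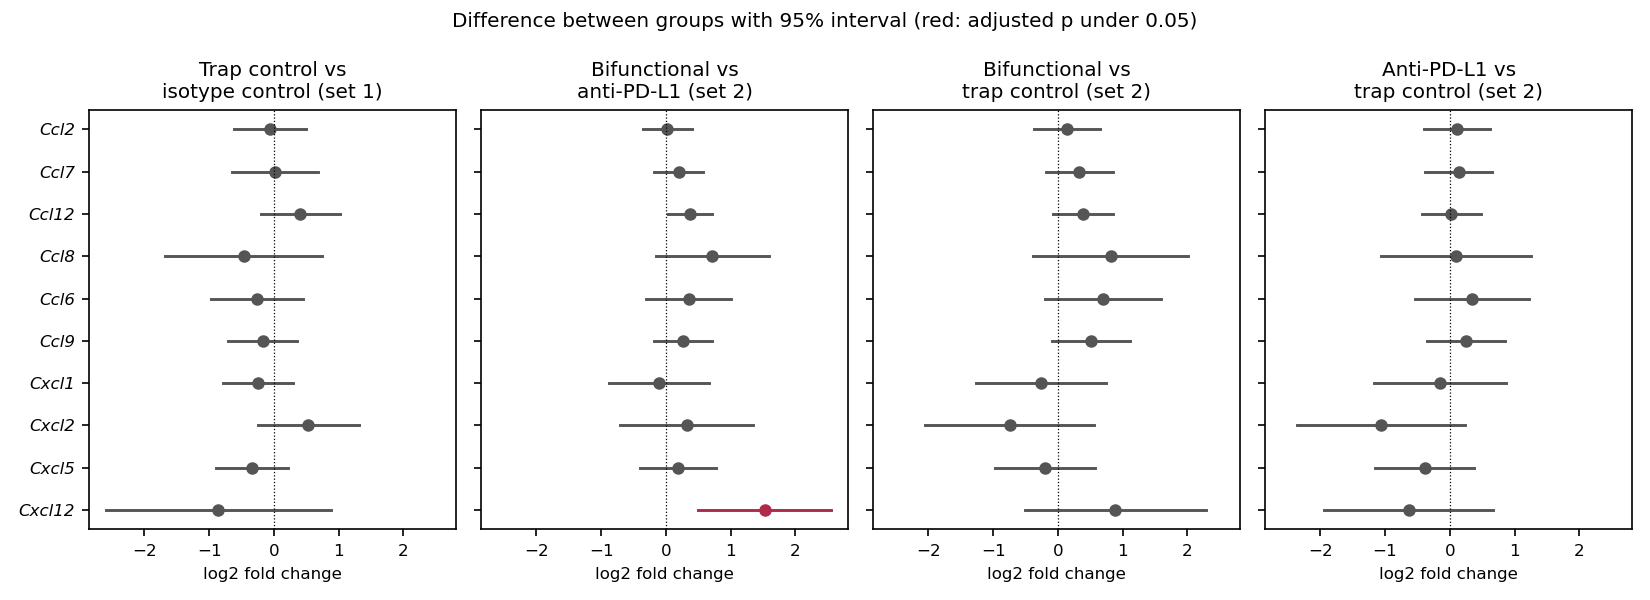
Log2 fold change of each chemokine (points) from edgeR in the 4 comparisons made within a set. Lines are 95% intervals computed from the fold and its F statistic, and red marks adjusted p under 0.05. Cxcl12 in bifunctional against anti-PD-L1 tumors, at 1.53, is the red one; no other value was called.

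Bifunctional against trap control, with 4 trap control libraries in set 2, asks what PD-L1 binding adds to the trap. Anti-PD-L1 against trap control changes both the binding and the trap. These comparisons share the 4 libraries with each other, and their treated tumors with the comparison above. edgeR called 0 of the 10 chemokines for bifunctional against trap control, 0 of 10 at an unadjusted p under 0.05 and 0 by DESeq2 (no adjusted p for 1 of them), where 0.00637% of all genes were called. The median log2 fold change of the 10 was 0.36 against 0.034 for all genes. For anti-PD-L1 against trap control edgeR also called 0 of 10, again 0 unadjusted and 0 by DESeq2, where 0.0127% of all genes were called, and the median was 0.061 against 0.010. Cxcl2 had the lowest value in the second, -1.06 (95% interval -2.36 to 0.23, edgeR adjusted p = 0.979). Its trap control tumors held 4.98, 6.35, 12.3 and 15.7 CPM, and 5 of the 10 anti-PD-L1 tumors lay below the lowest of these. Cxcl12 was 0.89 in the first (95% interval -0.50 to 2.29) and -0.64 in the second (95% interval -1.94 to 0.67). With 4 libraries on one side these intervals span several-fold changes.

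In set 1 the trap control was compared with the isotype control, which asks what the trap does without PD-L1 binding. edgeR called 0 of 10 chemokines, 0 at an unadjusted p under 0.05 and 0 by DESeq2, which gave no adjusted p for 1 of them, where 7.34% of all genes were called. The median of the 10 was -0.21 against 0.022 for all genes, and 3 of 10 were positive. Ccl2 ran from 5.19 to 27.0 CPM (median 11.3) with the isotype and from 8.58 to 14.6 CPM (median 12.1) with the trap control, with a log2 fold change of -0.05 (95% interval -0.61 to 0.50). Ccl12 ran from 1.14 to 8.72 CPM (median 6.05) and from 4.07 to 9.82 CPM (median 8.40), a log2 fold change of 0.41 (95% interval -0.20 to 1.02). For Ccl12, 5 of 6 trap control tumors lay above the isotype median and 3 above the highest isotype tumor. For Ccl2, 3 of 6 lay above the isotype median and none above the highest isotype tumor. Ccl7 had a log2 fold change of 0.01 (95% interval -0.65 to 0.68).

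Ccl8 in set 1 ran from 0.703 to 18.6 CPM (median 5.59) against 1.12 to 11.01 CPM (median 3.45). Ccl6 ran from 13.4 to 99.1 CPM (median 27.5) against 17.9 to 42.6 (median 27.7), and Ccl9 from 18.7 to 67.8 CPM (median 23.98) against 19.1 to 44.2 (median 23.4). The medians of the CCR1 ligands were almost equal, and the widest values belonged to single tumors. Cxcl1 ran from 2.64 to 8.66 CPM (median 3.88) against 2.25 to 5.48 (median 3.87), Cxcl2 from 1.44 to 4.58 (median 2.51) against 1.46 to 11.1 (median 2.79), and Cxcl5 from 5.87 to 23.9 (median 9.16) against 6.75 to 12.2 (median 8.26). Among these 6 genes the log2 fold changes ran from -0.47 for Ccl8 to 0.53 for Cxcl2 (95% interval -0.25 to 1.31), and the groups overlapped for each. Without C0459, the trap control tumor with 11.1 CPM, Cxcl2 was -0.070. Cxcl12 ran from 0.469 to 25.4 CPM (median 2.12) with the isotype and from 0.448 to 9.95 CPM (median 1.29) with the trap control, a log2 fold change of -0.86 (95% interval -2.59 to 0.88). Its highest tumors were C0449 among the isotype controls and the muscle-rich C0463 among the trap controls.

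Comparisons with the isotype control that cross the sets used the trap control libraries, present in both, to carry the set difference, which assumes that it is the same in every group. For anti-PD-L1 against isotype control edgeR called 0 of 10 chemokines (0 unadjusted, 0 by DESeq2), where 0.0124% of all genes were called. For the bifunctional protein against isotype control it called 0 of 10 (1 unadjusted, Ccl12, and 0 by DESeq2), where 2.39% of all genes were called. Ccl12 was 0.83 there (SE 0.38, edgeR adjusted p = 0.203). The interaction subtracts the set 1 difference (trap control over isotype control) from the set 2 difference (bifunctional over anti-PD-L1), and so asks whether the trap acts differently beside PD-L1 binding. It does not use the trap control libraries of set 2, so a trap effect that differs between the sets cannot be told from an interaction. It called 0 of 10 chemokines (1 unadjusted, Cxcl12, and 0 by DESeq2), where 7.91% of all genes were called. Cxcl12 was 2.45 (SE 0.98, edgeR adjusted p = 0.102), and it passed without C0463 (3.67). The 10 chemokines' medians in these 3 comparisons were -0.17, 0.24 and 0.35, against 0.0092, 0.070 and 0.042 for all genes.

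The sets themselves differed within 1 treatment, with a median log2 fold change of 1.02 over the 10 chemokines, all positive. Between the 4 trap control tumors of set 2 and the 6 of set 1, 7 of 10 chemokines were higher in set 2 and none lower, where 49.9% of all 16174 genes were called. The highest log2 fold change was that of Ccl8, 2.53 (SE 0.69, edgeR adjusted p = 0.00257). Ccl6 rose by 1.34, Ccl7 by 1.24, Ccl2 by 1.10, Ccl9 by 0.94 and Ccl12 by 0.81. Cxcl12 rose by 2.08 (SE 0.88, edgeR adjusted p = 0.0487), and that call was lost without any 1 of 8 trap control libraries, all but C0463 and C0466, with values of 1.68 to 2.13. The call of Ccl12 was lost without C0462 (0.68), C0465 (0.78) or C0468 (0.73). The CXCR2 ligands were not called: Cxcl1 was 0.41, Cxcl2 0.55 and Cxcl5 0.52. The fold of every member was above 0 at each setting run, and the labels do not say what separates the sets.

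Among the 12 receptor genes listed, of which Ackr4 is not a receptor of these ligands, 10 could be tested in set 2. On the TPM scale Ccr2 was the highest receptor in anti-PD-L1 tumors, at 10.8 ± 3.09 TPM (SD, n = 10), and among the others named here Ccr1 stood at 5.59 ± 0.971, Cxcr4 at 4.22 ± 1.01 and Ackr3 at 3.22 ± 1.58. Cxcr2, which binds the ELR chemokines, stood at 0.445 ± 0.140 TPM, and Ccr8 at 0.0160 ± 0.0195 TPM. The receptor of Ccl8 was thus near the floor while Ccl8 was among the highest ligands. In bifunctional against anti-PD-L1 tumors 2 of 10 receptors were higher and none lower, a share near the 25.6% of all genes called, with a median of 0.19. Of these, Ackr4, a scavenger of other CC chemokines, stood at 0.260 ± 0.121 CPM in anti-PD-L1 and 1.28 ± 2.08 CPM in bifunctional tumors, a log2 fold change of 2.28 (SE 0.52, edgeR adjusted p = 0.00724). Without C0479 and C0484 Ackr4 was 1.28 (edgeR adjusted p = 0.0196). Ccr2 was 0.04 (95% interval -0.37 to 0.45), Ccr1 0.13 and Cxcr4 0.17, none of them called.

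Of 25 other chemokine genes 20 could be tested. In bifunctional against anti-PD-L1 tumors 7 were higher and 1 lower, where 25.6% of all genes were called, with a median log2 fold change of 0.58. Cxcl11, an interferon-induced CXCR3 ligand, stood at 1.69 ± 0.664 CPM in anti-PD-L1 and 3.39 ± 1.08 CPM in bifunctional tumors, a log2 fold change of 1.00 (SE 0.26, edgeR adjusted p = 0.0121). Ccl25, a CCR9 ligand, fell by 0.71 (adjusted p = 0.0131), and Ccl5 and Xcl1, which T and NK cells make, rose by 0.83 and 0.86. Without C0479 and C0484, where 4.91% of all genes were called, Cxcl11 was the 1 gene of this list called (1.03, edgeR adjusted p = 0.0420). Xcl1 was then 0.87 (edgeR adjusted p = 0.0799), Ccl25 -0.59 (p = 0.0579) and Ccl5 0.65 (p = 0.122). The genes named here were picked by smallest adjusted p, and their folds do not stand for the list. The list median went from 0.58 to 0.30, and the median of the 10 chemokines was then 0.013. Whether the lists differ from each other was not tested.

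The list of cytokines and signalling genes upstream of chemokines held 20 testable genes. In bifunctional against anti-PD-L1 tumors, where 25.6% of all genes were called, 2 were higher: Tnfrsf1a, the TNF receptor (0.32, edgeR adjusted p = 0.0114), and Zfp36, an RNA-binding protein that destabilises cytokine mRNA (0.48, adjusted p = 0.0124), with a median of 0.097. Zfp36 was 0.37 without C0479 and C0484 (adjusted p = 0.0496), and Tnfrsf1a was 0.24 (adjusted p = 0.0509). In set 1 Nfkb2, an NF-κB subunit (0.32, adjusted p = 0.0311), and Myd88, the adaptor of Toll-like and IL-1 receptors (0.44, adjusted p = 0.0453), were higher with the trap control, 2 of 19 tested where 7.34% of all genes were called. The interaction was positive for Il1r1 (0.93), Tlr4 (0.68) and Tnfrsf1a (0.39), receptors for IL-1, bacterial lipopolysaccharide and TNF, and negative for Nfkb2 (-0.45), 4 of 20 called where 7.91% of all genes were.

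The chemokines varied together from tumor to tumor. With group means removed, 21 of 45 pairs were correlated across the 24 libraries of set 2 and 17 of 45 across the 16 of set 1, all positive (log2(CPM + 1), permutation within groups with 100000 resamples, adjusted over the 45 pairs of a set). The points share library depth and composition. Ccl2 and Ccl7 gave r = 0.90 and rho = 0.88 in set 2 (adjusted p = 7.5e-05 and 0.000225, r = 0.88 without the 2 farthest libraries) and r = 0.89 and rho = 0.86 in set 1 (adjusted p = 0.0005625 and 0.001012, r = 0.74 without them). Ccl6 and Ccl9 gave r = 0.93 and rho = 0.83 in set 2 (adjusted p = 7.5e-05 and 0.00027, then r = 0.89) and r = 0.86 and rho = 0.84 in set 1 (adjusted p = 0.0008357 and 0.00108, then r = 0.75). Each of these pairs stands side by side on chromosome 11 and shares a receptor.

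The CXCR2 ligands formed a separate group in set 2. Cxcl1 and Cxcl5 gave r = 0.88 and rho = 0.79 (adjusted p = 0.0001125 and 0.00027, r = 0.76 without the 2 farthest libraries), Cxcl1 and Cxcl2 gave r = 0.82 and rho = 0.83 (adjusted p = 7.5e-05 and 0.000225, then r = 0.80), and Cxcl2 and Cxcl5 gave r = 0.77. None of the pairs of a CC member with Cxcl1, Cxcl2 or Cxcl5 was called, with r from -0.04 to 0.34. In set 1 Cxcl1 and Cxcl5 again gave r = 0.94 and rho = 0.91 (adjusted p = 0.000225 for each, then r = 0.86), but Cxcl2 gave r = 0.07 with Cxcl1 and 0.29 with Cxcl5, neither called. Cxcl2 therefore varied with the other ELR ligands in set 2 and not detectably in set 1; that the sets differ was not tested.

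Cxcl12 was correlated with 5 of the 6 CC members in set 1 and 4 of 6 in set 2, and with none of Cxcl1, Cxcl2 and Cxcl5. With Ccl8 it gave r = 0.85 and rho = 0.74 in set 2 (adjusted p = 0.00025 and 0.002655, r = 0.72 without the 2 farthest libraries) and r = 0.80 and rho = 0.91 in set 1 (adjusted p = 0.0008357 and 0.001012, then r = 0.77). Some of these relations rested on the muscle-rich tumors. Without C0479 and C0484 15 pairs of set 2 were called. Ccl6 with Ccl9 was then 0.91, Ccl2 with Ccl7 0.86, Cxcl1 with Cxcl5 0.87 and Ccl8 with Cxcl12 0.67, all still called, and Ccl8 was then the 1 CC member still correlated with Cxcl12, while Ccl7 with Cxcl12 went from 0.72 to 0.42 and Ccl2 with Cxcl12 from 0.52 to 0.19, no longer called. Without C0463 17 pairs of set 1 were called.

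**Figure D3:**
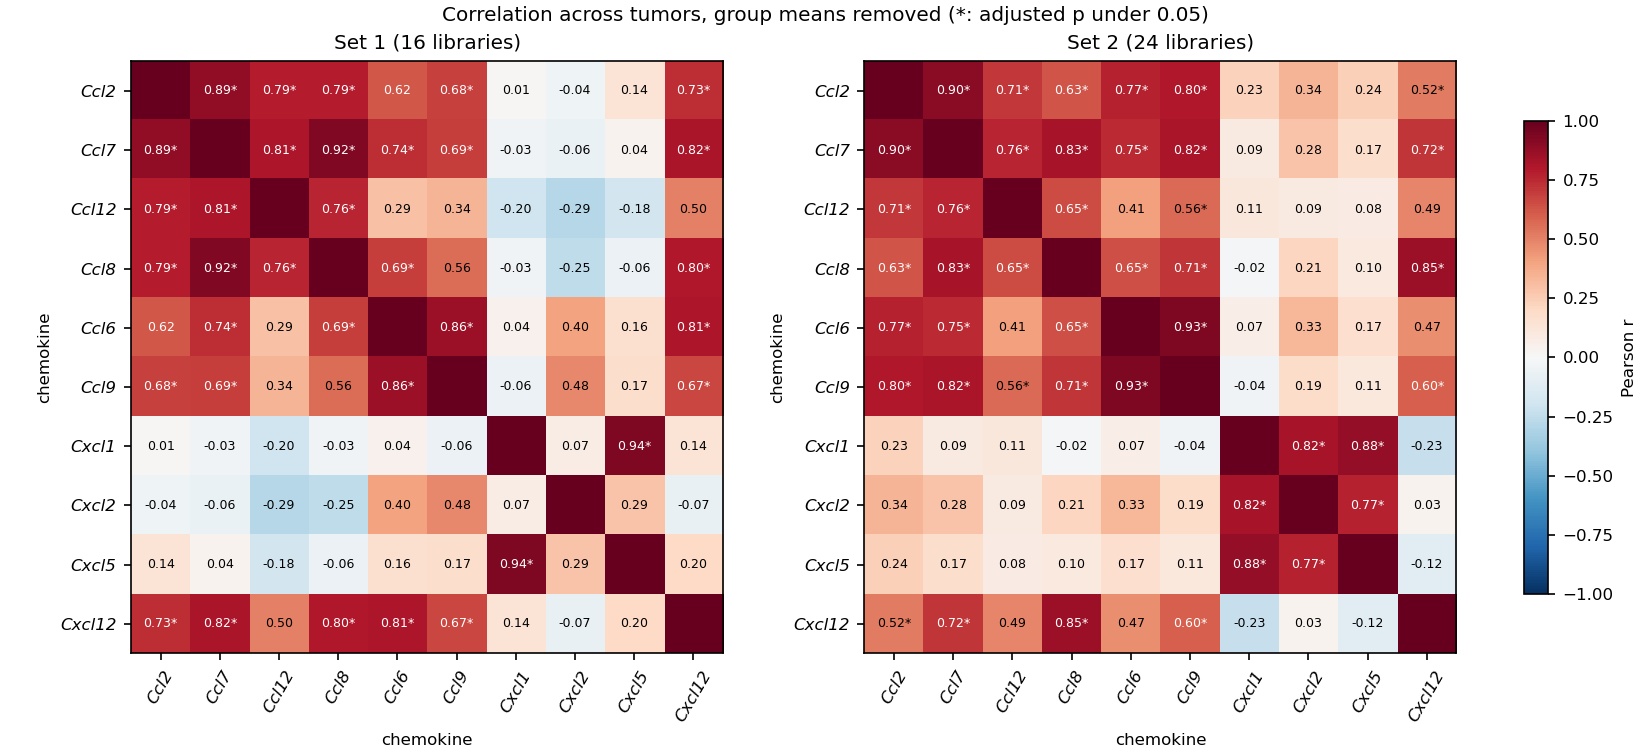
Pearson r between each pair of chemokines (colour and number) in the 16 libraries of set 1 and the 24 of set 2, on log2(CPM + 1) with group means removed; a star marks a permutation p under 0.05 after adjustment over 45 pairs. Most pairs of CC members, and several of them with Cxcl12, carry a star in both sets, and all pairs among Cxcl1, Cxcl2 and Cxcl5 do so in set 2, where Cxcl1 with Cxcl2 reads 0.82 against 0.07 in set 1.

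Markers of cell types moved with some of the chemokines. Each chemokine was set against the summed markers of 6 lists, a step added after the results were seen, with 60 pairs a set. No pair with the monocyte markers was called in either set. For the CCR2 ligands Ccl2, Ccl7 and Ccl12 the monocyte markers gave r = -0.07, -0.03 and -0.09 in set 2. Across the 24 libraries of set 2 the neutrophil markers gave r = 0.88 with Cxcl2, 0.77 with Cxcl1 and 0.78 with Cxcl5 (rho 0.85, 0.75 and 0.79, adjusted permutation p = 0.0003, 0.0012 and 0.0006 for r), and without C0479 and C0484 r was 0.90, 0.81 and 0.82. Ccl2, Ccl7 and Ccl8 were also called with the neutrophil markers, at r = 0.60, 0.56 and 0.52 (adjusted permutation p = 0.0244, 0.0355 and 0.0469). Without C0479 and C0484 these were 0.59, 0.49 and 0.40, none of them called. The list holds Cxcr2 itself, and its granulocyte marker Ly6g was at 0 in 22 of 24 libraries of set 2 and 16 of 16 of set 1, with Camp at 0 in 14 and Ngp in 15 of the 24. S100a8 and S100a9 had counts in all 40 libraries. None of the 7 neutrophil markers tested was called between bifunctional and anti-PD-L1 tumors by edgeR, where 25.6% of all genes were called. The summed level of the neutrophil list ran from 22.2 to 118 CPM in bifunctional and from 17.7 to 70.9 CPM in anti-PD-L1 tumors.

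Cxcl12 gave r = 0.94 and rho = 0.90 with the endothelial markers in set 2 (adjusted permutation p = 0.0003 for each), and r = 0.88 without C0479 and C0484. In set 2 Cxcl12 also gave r = 0.61 with the fibroblast markers, 0.60 with the muscle markers and 0.56 with the macrophage markers (adjusted permutation p = 0.0149, 0.0355 and 0.0355). None of these 3 was called without C0479 and C0484, which were set aside for their muscle RNA. The fibroblast sum was made up mostly of collagen genes. Mean Col1a2 was 5380 CPM in anti-PD-L1 and 2830 CPM in isotype control tumors, against 122 and 77.4 CPM for Pdgfra. In set 1 the order was another: Cxcl12 gave r = 0.77 and rho = 0.52 with the muscle markers (adjusted permutation p = 0.0455 and 0.198), r = 0.24 without the 2 farthest libraries, and r = 0.60 with the endothelial markers, not called (adjusted permutation p = 0.126). These lists vary together, and their parts in the Cxcl12 values were not tested. Ccl12 gave r = 0.79 and rho = 0.84 with the 12 macrophage markers (adjusted permutation p = 0.0009 and 0.0004), and r = 0.72 without those libraries. Those markers had counts in every library and summed to 2004 to 3961 CPM in bifunctional and 1572 to 2588 CPM in anti-PD-L1 tumors. Of them 8 of 12 were higher in the bifunctional group, where 25.6% of all genes were called. Without C0479 and C0484 it was 1 of 12, where 4.91% of all genes were called. The part of macrophage RNA in the Ccl12 values was not tested. Of the 60 pairs 22 were called in set 2 and 5 in set 1, and without the muscle-rich libraries 5 and 2. In set 1 Cxcl2 with the neutrophil markers gave r = 0.84 (adjusted permutation p = 0.0455), with rho = 0.61 not called. Cxcl1 and Cxcl5 there gave r = 0.31 and 0.47, not called, and -0.31 and -0.10 without the 2 farthest libraries. Ccl12 with the macrophage markers gave r = 0.57 in set 1, not called, and 0.10 without the 2 farthest libraries. Cxcl2 with the fibroblast markers gave r = -0.58 in set 1 and -0.63 without C0463 (adjusted permutation p = 0.0455 and 0.027). In set 2 it gave -0.07, not called.

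**Figure D4:**
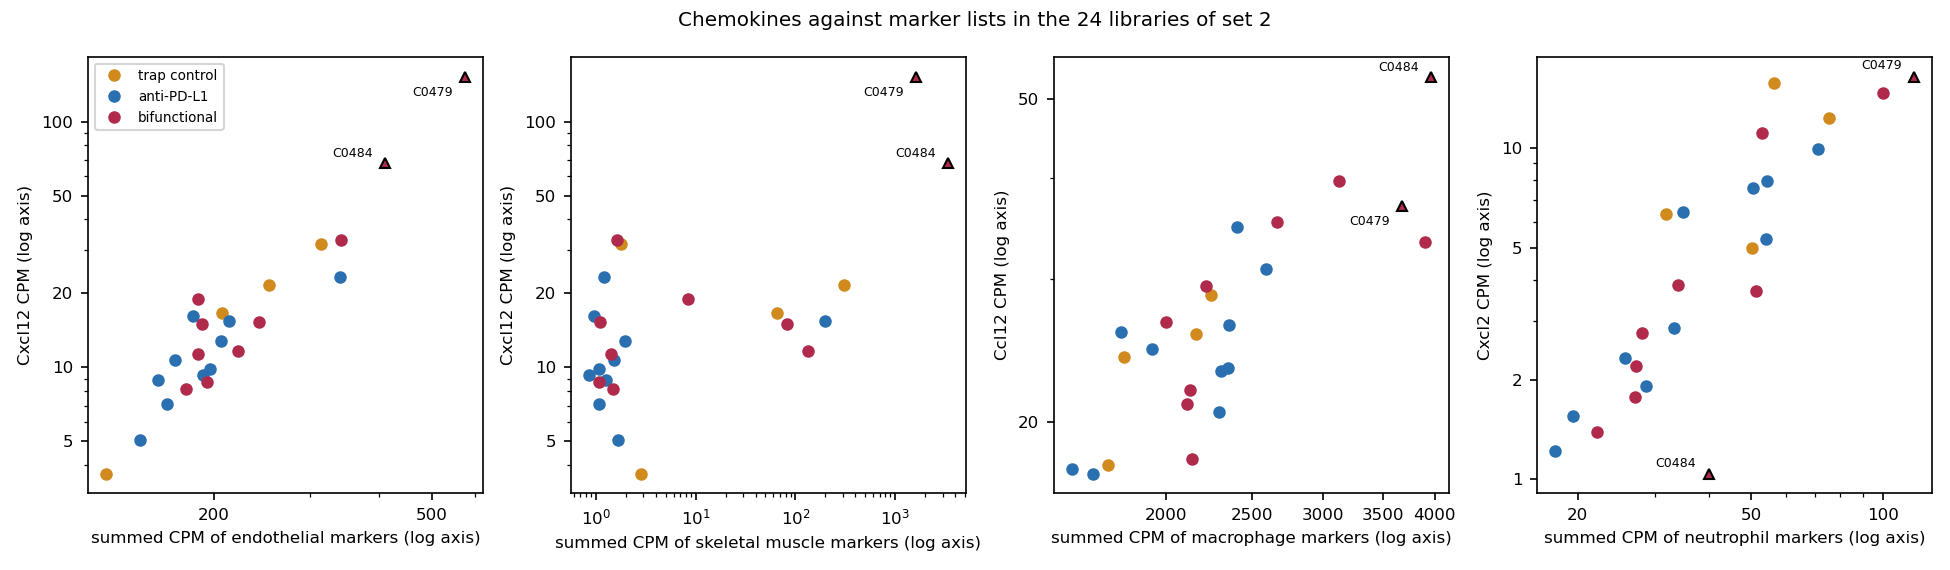
CPM of Cxcl12, Ccl12 and Cxcl2 against the summed CPM of marker lists in the 24 libraries of set 2 (both axes log), 1 point per tumor, coloured by group, with the muscle-rich C0479 and C0484 as labelled triangles. Cxcl12 rises with the endothelial sum (r = 0.94 on the log2 scale with group means removed), C0479 and C0484 stand far to the right on the muscle sum, and C0484 is the lowest Cxcl2 tumor at 1.04 CPM.

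The genes most like each chemokine, by r over the 24 libraries of set 2 among 12225 genes, often included another chemokine. Ccl2 had Ccl7, Smpdl3a and Ccl9 (r = 0.90, 0.83 and 0.80), and Ccl7 had Mcoln2, Ccl2 and Smpdl3a (0.90, 0.90 and 0.88). Ccl6 had Ccl9, Wfdc17 and Lyve1, a marker of some tissue macrophages and lymphatic endothelium (0.93 each), and Ccl9 had Ccl6, Ms4a8a and Wfdc17 (0.93, 0.92 and 0.89). Ccl8 had C6, a complement protein, with Ggt5 and Mcoln2 (0.94, 0.93 and 0.93), and Ccl12 had Ms4a6d, Cfp and Fpr2 (0.86, 0.85 and 0.81). Cxcl1 had Nfkbiz, an inducible NF-κB regulator, Stx11 and Cxcl5 (0.92, 0.90 and 0.88), and Cxcl5 had Cxcl1, Nfkbiz and S100a8 (0.88, 0.84 and 0.83). Cxcl2 had the cytokine Osm, the chemokine Ccl3 and the cytokine Il1b (0.94, 0.93 and 0.92). Cxcl12 had Aplnr, the apelin receptor of endothelial cells, Ehd4 and Adgrl2 (0.97, 0.95 and 0.95). These are the highest of many correlations and are given as a description. The muscle-rich C0479 and C0484 were kept in, and the ranking was not repeated without them.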

How the data were processed

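RNA of 40 EMT-6 tumors was depleted of ribosomal RNA and primed at random, per the labels' protocols. The authors deposited RSEM expected counts, rounded here to whole numbers (14.01% of values were not whole), and TPM per gene. Tools and build per the submitters' processing notes were Bowtie2 2.3.1, RSEM 1.2.31 and mm10. The strand setting is not given in the sources used here, so a gene and an antisense partner cannot be told apart.

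IDs were named from GENCODE M21 (37607 of 39012, 96.4%). Each set was fitted apart with edgeR 4.0.16 (R 4.3.3: filterByExpr, TMM, quasi-likelihood F test, Benjamini-Hochberg adjustment over all genes tested, threshold 0.05), with 1 mean per group. A joint fit with a mean per group and set gave the comparisons across sets and the interaction. No GEO label names the sets: they were read from the structural RNA share and kept apart by library number. CPM are TMM-scaled within a set, and a library's total limits the precision of a low value. Correlations used log2(CPM + 1) with group means removed, permuting within groups. No 2 libraries agreed within sampling noise (smallest chi-square per degree of freedom 9.596). The fitting code was tested on simulated data.

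The 10 chemokines, the gene lists and the naming rule were chosen with earlier results of these data known. The rule names all 10 members, up to 4 called genes per list and comparison by smallest adjusted p, any receptor, and the 3 genes most correlated with each member. For 1 receptor the values are not reported here. Alternatives were DESeq2 1.42.0 size factors and Wald test, other filters, limma 3.58.1 on log2(TPM + 1) and log2(TPM + 0.1), structural RNA left out, sets pooled, other sample choices, marker scores as covariates, and each library left out. Marker correlations, the settings for the comparison between sets, and the left-out libraries for correlations and gene lists were added after the data were seen.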

Additional observations from a re-analysis of the deposited data

Results flagged for a closer look

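Of 50 groups of values (10 chemokines in 5 groups), 13 held a tumor standing far from the rest of its group by a gap test. The test flags about 1 group in 20 by chance only for independent groups of normally distributed values. The CPM were not logged, each flagged tumor was the highest of its group, and the chemokines vary together. The 13 therefore cannot be set against that rate. Among the isotype controls C0449 was the highest in 5 of the 13 groups: Ccl2 at 27.0 CPM against a next value of 15.9, Ccl6 at 99.1 against 47.5, Ccl8 at 18.6 against 10.1, Ccl9 at 67.8 against 35.2, and Cxcl12 at 25.4 against 6.66. Its skeletal muscle markers summed to 60.1 CPM. Among the trap controls of set 1, C0459 held Ccl9 at 44.2 CPM against 25.7 and Cxcl2 at 11.1 against 3.73, and the muscle-rich C0463 held Cxcl12 at 9.95 against 1.85. C0459 held 62.3% of its counts in 7SL and mitochondrial ribosomal RNA, the highest share of set 1, and 24.5% in protein-coding genes. On the TPM scale the trap controls of set 1 ran from 3.27 to 4.83 for Ccl9 and from 0.38 to 1.31 for Cxcl2.

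In set 2 the anti-PD-L1 tumor C0478 held Ccl6 at 429 CPM against 237 and Ccl9 at 199.5 against 121. The bifunctional tumor C0482 held Cxcl1 at 28.0 CPM against 9.64 and Cxcl5 at 56.6 against 24.03, and C0479 held Cxcl12 at 152 against 67.9 in C0484. What set these tumors apart was not tested.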

How the results depend on the processing

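Among the 11 settings that keep the sets apart, 58 of 67 pairs of a treatment comparison and a setting called no member, and the other 9 were all bifunctional against anti-PD-L1, where 0 members were called with host-tissue scores as covariates, 0 without C0479 and C0484, and 0 to 2 when each library was left out in turn. With the sets pooled, members called were 1 for trap control against isotype control (Ccl12, 0.79), 7 for bifunctional and 4 for anti-PD-L1 against trap control, and 6 for anti-PD-L1 and 7 for bifunctional against isotype control; pooling counts the set difference as treatment. The interaction called 0 to 1 members over the libraries left out.

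Directions turned as follows, and the cause was not tested. In bifunctional against anti-PD-L1, with the covariates, Ccl2 was -0.21, Ccl7 -0.13, Ccl8 -0.36, Ccl6 -0.056 and Ccl9 -0.052, and without C0479 and C0484 Ccl2 was -0.17, Ccl7 -0.061, Ccl8 -0.20 and Ccl6 -0.0025. With each library left out in turn Ccl2 ran from -0.059 to 0.12, Cxcl1 from -0.61 to 0.031 and Cxcl5 from -0.17 to 0.27. Cxcl12 against trap control in set 2 was -0.084 with the covariates and -0.27 without both libraries for the bifunctional group, and 0.19 with pooled sets for anti-PD-L1. Cxcl12 in set 1 was 0.19 by DESeq2's Wald test and 0.37 with pooled sets, and ran from -2.08 to 0.13 with each library left out, while Cxcl2 ran from -0.070 to 0.69. Against isotype control Cxcl12 was 0.56 for anti-PD-L1 with pooled sets, and for the bifunctional group -1.42 with the covariates, -1.12 without both libraries, and -1.13 to 1.06 with each library left out.

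Genes called over the whole table ranged, across other settings and then across left-out libraries, from 2 to 4212 and 421 to 1381 for trap control against isotype control in set 1, 760 to 4441 and 2141 to 5242 for bifunctional against anti-PD-L1, 0 to 5070 and 0 to 176 for bifunctional against trap control, 0 to 6696 and 0 to 2 for anti-PD-L1 against trap control, 0 to 9664 and 0 to 2 for anti-PD-L1 against isotype control, 0 to 9814 and 1 to 920 for bifunctional against isotype control, and 33 to 3917 and 492 to 1898 for the interaction. Between the sets, 6994 to 11659 genes and 6 to 10 members were called over other settings, and 5 to 7 members over left-out libraries; Cxcl12 was lost without the filter (2.12, edgeR adjusted p = 0.0619) and with a mean of at least 1 CPM (2.03, p = 0.0537). No paired analysis was possible because the columns carry library numbers and no replicate number shared between groups. With 4 trap control tumors in set 2, small changes would not be detectable in comparisons with them.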
